A study of Homo sapiens with 8 samples.

Results

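Estradiol coupled to bovine serum albumin, called E2-BSA, was set against its carrier, bovine serum albumin (BSA), in SKBR3 cells, with 1 array a side. Each difference was the value of the E2-BSA array minus that of the BSA array, averaged over all probe sets that carried 1 gene symbol. These were 41091 of 54675 probe sets and gave 19775 genes. SKBR3 is a human breast cancer cell line that overexpresses the receptor tyrosine kinase HER2 and lacks the nuclear estrogen receptor alpha. E2-BSA cells received 1e-06 M of the conjugate for 3 h, BSA cells 1e-06 M of BSA for 3 h, and untreated cells were harvested 3 h after a change of medium, all after 4 h in medium with 10% charcoal-stripped serum. The other arrays of the series, of the same time, held E2-BSA at 1e-06 M with ICI at 1e-05 M, E2-BSA at 1e-06 M with G15 at 1e-05 M, G15 alone at 1e-05 M, estradiol at 1e-06 M, and 0.1% ethanol.

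Estradiol is a steroid that crosses the cell membrane and binds nuclear receptors, which then act on DNA as transcription factors. The coupling to albumin is used to hold the hormone outside the cell, so that receptors at the cell surface are addressed. SKBR3 cells are often used for this purpose because they express GPER1, a G protein-coupled receptor that binds estradiol and is linked to release of EGF receptor ligands, MAP kinase signalling and the induction of genes such as FOS, EGR1 and CCN2. G15 is an antagonist of GPER1. The labels do not say what ICI stands for. Albumin is itself a carrier of lipids and hormones that cells take up, so the array with BSA alone stands beside the conjugate, and the untreated array gives a further point to read each gene against.

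Deposited values were relative, on a scale read as log2 and centred for each probe set across the arrays. A value of 0 is thus the middle of the series for that probe set, and says nothing of whether the gene was abundant or silent. For that reason the identity of the cells could not be checked from marker levels. The difference between E2-BSA and BSA cells had a median of 0.04 over 18 luminal and HER2 identity markers, -0.02 over 10 leukocyte markers, 0.00 over 12 fibroblast markers and 0.00 over 8 endothelial markers. No array was replicated, so no difference here has an error or a test. In such bulk RNA, fewer cells of a kind and less RNA per cell cannot be told apart.

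Few genes differed between conjugate and carrier, and more of them were lower than higher with the conjugate. At 1.5-fold, 67 genes were higher in E2-BSA cells than in BSA cells, or 0.339% of the genes measured, and 131 were lower, or 0.662%. Higher genes were thus 33.8% of the 198 genes past this fold, and 44.6% after quantile normalization of the arrays. Among the 10523 genes with several probe sets the order turned, with 30 higher and 14 lower. At 2-fold, 2 genes were higher, PLPP3 and INTU (0.0101%), and 2 were lower, IFI27 and MALAT1 (0.0101%), together 0.0202% of the genes. The same 2 arrays set against untreated cells gave 22 higher genes (0.111%) and 47 lower genes (0.238%) for E2-BSA, and 70 higher (0.354%) and 40 lower (0.202%) for BSA, so that these comparisons share arrays. At 2-fold from untreated, E2-BSA had 0 genes (0.00%) and BSA had 6, all of them higher (0.0303%). The spread of these differences over all genes was 0.20 (SD) for E2-BSA against BSA, 0.166 for E2-BSA against untreated and 0.166 for BSA against untreated. Just inside and outside the 1.5-fold limit of 0.585 lay PLEKHA1 at 0.585 and CCN2 at 0.584 among higher genes, and EVI2A at -0.586 and NANOG at -0.585 among lower genes.

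Both arrays often stood at an end of the series in the genes past 1.5-fold, which a choice by their difference favours. In the 67 higher genes E2-BSA was the highest of the 8 arrays in 27 and BSA the lowest in 46. In the 131 lower genes E2-BSA was the lowest in 103 and BSA the highest in 88. Over all 19775 genes, E2-BSA stood at either end in 5555 and BSA in 4409. The untreated array split the 198 genes by its place between the 2 others. In 29 genes it lay at least 75% of the way from E2-BSA to BSA, so that the departure was on the E2-BSA array, with 6 genes higher and 23 lower. In 53 genes it lay at most 25% of that way, or beyond E2-BSA, so that the departure was on the BSA array, with 29 higher and 24 lower. The remaining 116 genes, 32 higher and 84 lower, had untreated values between these limits.

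**Figure D1:**
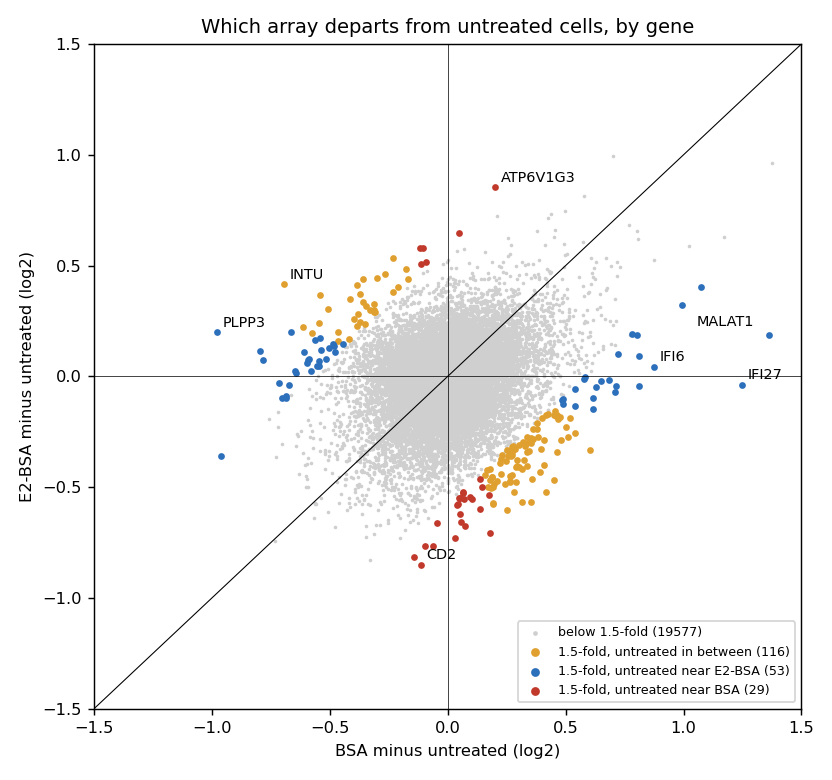
Difference of BSA from untreated (x axis, log2) against that of E2-BSA from untreated (y axis, log2) with 1 point a gene. The 198 genes at 1.5-fold between E2-BSA and BSA are coloured by the place of the untreated array and all other genes are grey. Of the coloured genes, 53 genes departed on the BSA array and 29 on the E2-BSA array.

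The control probe sets, which report RNA spiked in or the ends of long transcripts rather than the response of the cells, also differed between the arrays. All 18 hybridization controls were lower on the E2-BSA array than on the BSA array, with a median difference of -0.50 (-0.70 to -0.24). Their medians were -0.25 with E2-BSA, 0.28 with BSA and 0.13 untreated, so the conjugate and carrier arrays lay on opposite sides of untreated. Elsewhere they were 0.21 with G15, 0.37 with E2-BSA and ICI, 0.00 with E2-BSA and G15, -0.18 with estradiol and -0.06 with ethanol.

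Of 24 poly-A spike controls, 20 were higher with E2-BSA. The median difference was 0.45 for the 8 probe sets at the 5′ end of the spikes, 0.25 for those in the middle and 0.08 for those at the 3′ end. The 5′ medians were -0.27 with G15, -0.39 with E2-BSA and ICI, 0.31 with E2-BSA and G15, -0.01 with estradiol and 0.04 with ethanol. For ACTB, the beta-actin gene, the difference was 0.30 at the 5′ end and 0.03 at the 3′ end, and for GAPDH it was 0.15 at the 5′ end and 0.01 at the 3′ end. These 5′ differences had the direction of the 67 higher genes and the hybridization controls that of the 131 lower genes, and their part in those results was not tested.

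**Figure D2:**
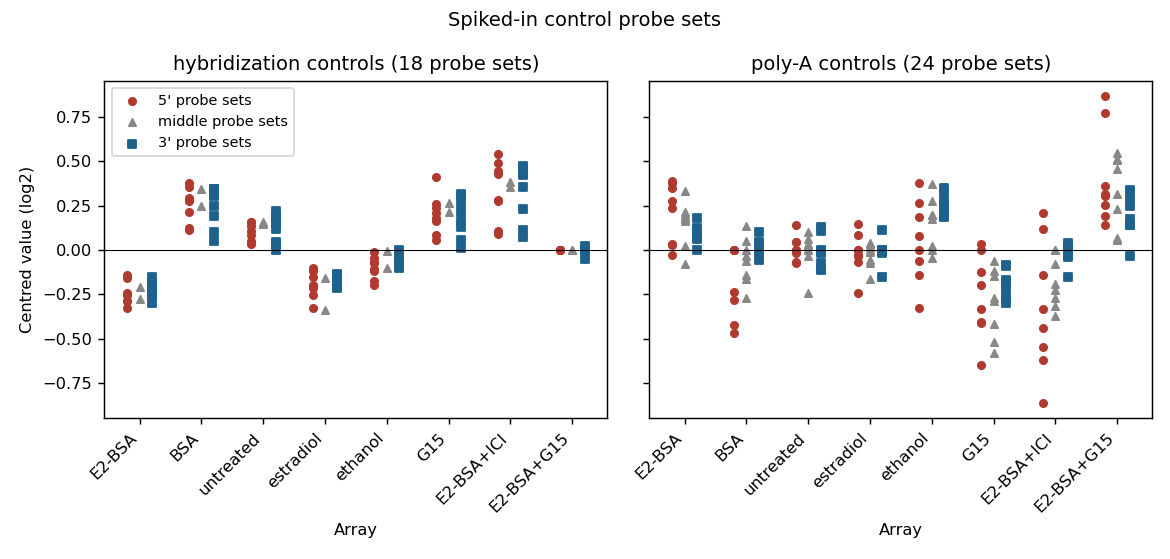
Centred values (log2) of the array's control probe sets on the 8 arrays, 1 point a probe set, with the 18 hybridization controls on the left, the 24 poly-A controls on the right, and colours for the end of the spiked transcript. The hybridization controls had a median of -0.25 with E2-BSA and 0.28 with BSA, and the 5′ poly-A controls 0.26 with E2-BSA and -0.12 with BSA.

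The 12 genes farthest above the carrier included an enzyme of lipid signalling, a cilium assembly factor and transcription factors, and in all 12 the BSA array was below both E2-BSA and untreated. PLPP3, a membrane enzyme that dephosphorylates lysophosphatidic acid and sphingosine 1-phosphate outside the cell, had 0.20 in E2-BSA cells, against -0.98 in BSA cells and 0.00 in untreated cells. Among these arrays its difference of 1.18, or 2.26-fold, thus lay on the BSA array, while E2-BSA stood 0.20 above untreated. PLPP3 was also low with G15 (-0.72), with E2-BSA and G15 (-0.69) and with E2-BSA and ICI (-0.40). Estradiol cells had 0.04 and ethanol cells 1.89. The 3 probe sets of PLPP3 disagreed in size, with differences from 0.23 to 1.99, and the gene's difference was 0.23 without the probe sets that can match several transcripts.

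INTU encodes a planar polarity effector needed to build primary cilia. It had 0.09 in E2-BSA cells, against -1.02 in BSA cells and -0.32 in untreated cells, so the conjugate was 2.16-fold above the carrier and 0.42 (log2) above untreated. INTU was measured by 1 probe set.

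ELF1, an ETS family transcription factor, had 0.19 in E2-BSA cells, against -0.72 in BSA cells and 0.07 in untreated cells. NCR3LG1, a surface ligand of the natural killer cell receptor NKp30, had 0.37 in E2-BSA cells, against -0.54 in BSA cells and 0.00 in untreated cells. The difference between E2-BSA and BSA was 0.91 in both genes, and in both the untreated array was nearer to E2-BSA. For ELF1 this was the mean of probe sets at 1.54 and 0.28, and NCR3LG1 had 1 probe set. Ethanol cells stood above all other arrays for NCR3LG1, at 1.68. ELF1 was also low with G15, at -0.56, where NCR3LG1 had 0.00.

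DPYSL2, which binds tubulin and microtubules, had 0.32 in E2-BSA cells, against -0.55 in BSA cells and 0.12 in untreated cells. M6PR, the cation-dependent mannose 6-phosphate receptor that sorts lysosomal enzymes, had 0.16 in E2-BSA cells, against -0.70 in BSA cells and 0.08 in untreated cells. PURB, which binds single-stranded purine-rich DNA, had 0.07 in E2-BSA cells, against -0.76 in BSA cells and -0.15 in untreated cells. In these genes E2-BSA was 0.07 to 0.22 above untreated, and BSA lay farther from untreated than E2-BSA did. On the G15 array DPYSL2 and M6PR were also low, at -0.32 and -0.48, while PURB was at 0.12. DPYSL2, M6PR and PURB each had 1 probe set.

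The nuclear receptor NR1D2, a repressor of the circadian clock, followed the same course with 0.29 in E2-BSA cells, against -0.50 in BSA cells and 0.05 in untreated cells. CSF2RB, the common signalling chain of the receptors for IL-3, IL-5 and GM-CSF, had 0.41 in E2-BSA cells, against -0.39 in BSA cells and 0.00 in untreated cells, which put untreated midway. PRICKLE2, of the planar polarity pathway, was placed alike with 0.37 in E2-BSA cells, against -0.43 in BSA cells and -0.07 in untreated cells. The probe sets of NR1D2 differed by 1.33 and 0.25, and CSF2RB and PRICKLE2 each had 1 probe set.

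**Figure D3:**
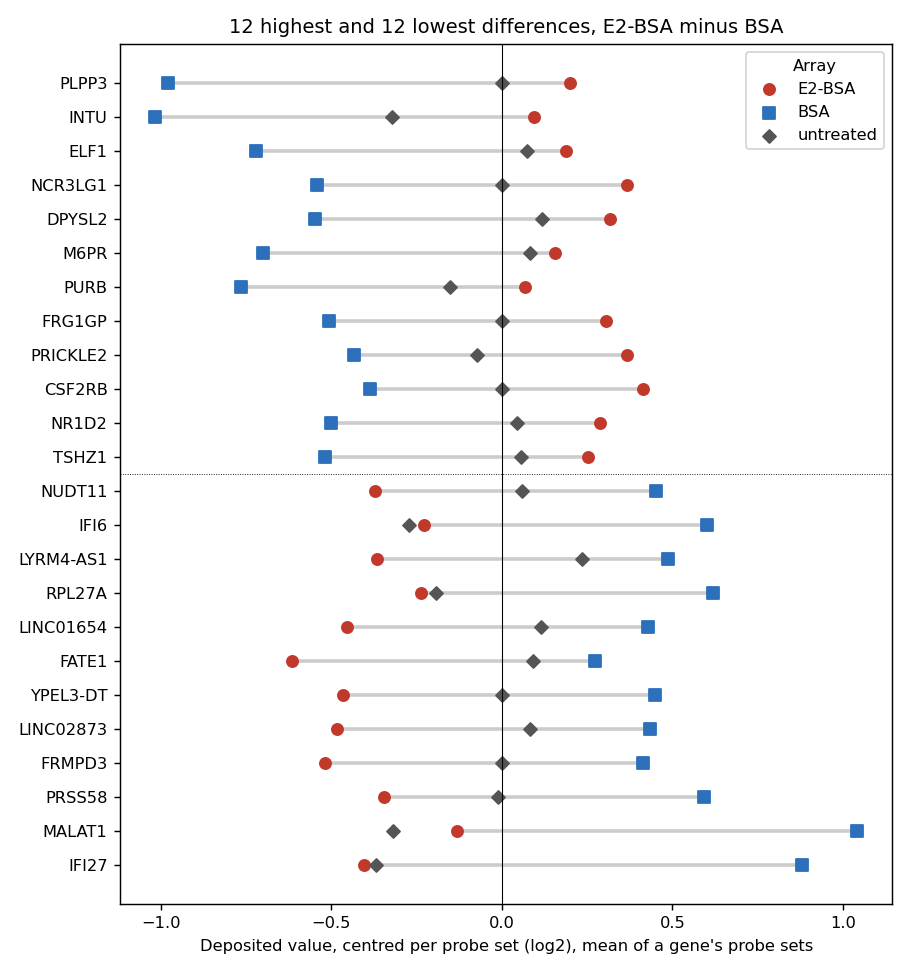
Values (log2, centred for each probe set) of the 12 genes farthest above and the 12 farthest below BSA on the E2-BSA array, with 1 point for each of the E2-BSA, BSA and untreated arrays and no error bars, as there is 1 array a condition. In the 12 upper genes the BSA point stands farthest to the left, and for IFI27, RPL27A and IFI6 the E2-BSA and untreated points lie close together while BSA stands far to the right. PRSS58, FRMPD3, LINC02873, YPEL3-DT, LINC01654, LYRM4-AS1 and NUDT11, each with 1 probe set, have the untreated point between the E2-BSA and BSA points.

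Several probe sets of the same gene gave a check that single probe sets lack. Of 10523 genes with more than 1 probe set, 18 were higher and 2 were lower in E2-BSA cells with all their probe sets on one side and at least 2 of them past 1.5-fold. PDE8B, a phosphodiesterase that degrades cyclic AMP, had 0.20 in E2-BSA cells, against -0.48 in BSA cells and 0.17 in untreated cells, with differences of 1.12, 0.83 and 0.07 over its probe sets. STAG2, a subunit of cohesin, had 0.06 in E2-BSA cells, against -0.60 in BSA cells and 0.04 in untreated cells, with differences of 1.05, 0.80 and 0.12. In both genes 1 probe set hardly differed while the others did. Both were also low with G15, at -0.40 for PDE8B and -0.68 for STAG2, the latter below BSA.

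NEMF, which recognizes stalled ribosomes, differed by 0.62, and the mitochondrial phosphatase PPTC7 by 0.72. Against untreated, E2-BSA differed by 0.07 for NEMF and 0.18 for PPTC7. SQLE, the squalene epoxidase of cholesterol synthesis, had 4 probe sets between 0.22 and 0.90 and a mean difference of 0.53, with 0.20 in E2-BSA cells, against -0.33 in BSA cells and 0.07 in untreated cells. The BSA array was the lowest of the series in 14 of the 18 higher genes, and untreated lay nearer to E2-BSA than to BSA in 15 of the 18. E2-BSA was the highest array in most of the 18, PDE8B and STAG2 among them. The choice by difference favours both ends.

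The 2 lower genes with agreeing probe sets were VAMP2 and MUC5B. VAMP2, a vesicle protein that drives fusion with the plasma membrane, had -0.27 in E2-BSA cells, against 0.51 in BSA cells and -0.20 in untreated cells. Its difference was -0.78, and -0.28 without probe sets that can match several transcripts. MUC5B, a secreted gel-forming mucin, had -0.35 in E2-BSA cells, against 0.42 in BSA cells and -0.06 in untreated cells, with differences of -0.78 and -0.75 over its 2 probe sets. In both genes BSA was the highest of the 8 arrays and untreated lay nearer to E2-BSA. For VAMP2, E2-BSA was also the lowest array.

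Agreement of this kind was uncommon. At least 1 probe set was 1.5-fold higher in 567 of the genes with several probe sets, and in 463 of these another probe set of the same gene was within 0.2 of 0. For lower probe sets the counts were 311 genes and 253. In 8 genes, some probe sets were 1.5-fold higher and others 1.5-fold lower.

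Genes that interferon induces lay past 1.5-fold on both sides of the carrier, with IFI27, IFI6 and IFITM1 below it and the chemokine genes CXCL10 and CXCL11 above it. CXCL10 and CXCL11 were in none of the lists. The proteins of IFI27, IFI6 and IFITM1 are made after interferon binds its receptor, act at mitochondria (IFI27, IFI6) or at membranes that viruses enter through (IFITM1), and their promoters carry interferon-stimulated response elements. Their promoters are shown because these were the members of the interferon list past 1.5-fold. Each is a stretch of 300 bases that spans the gene start, read in the direction of the gene (RefSeq, GRCh38.p14), with each match to GAAA, any 2 bases and GAAA, in either orientation, in capitals. IFI27 lies at chr14:94110486-94110785 on the plus strand, IFI6 at chr1:27672143-27672442 on the minus strand and IFITM1 at chr11:313790-314089 on the plus strand.
IFI27: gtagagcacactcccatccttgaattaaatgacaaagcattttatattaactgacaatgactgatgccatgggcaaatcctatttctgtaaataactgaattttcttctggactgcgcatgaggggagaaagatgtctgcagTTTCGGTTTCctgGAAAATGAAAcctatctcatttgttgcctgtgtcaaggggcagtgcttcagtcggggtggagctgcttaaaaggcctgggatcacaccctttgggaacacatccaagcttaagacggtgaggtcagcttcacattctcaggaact
IFI6: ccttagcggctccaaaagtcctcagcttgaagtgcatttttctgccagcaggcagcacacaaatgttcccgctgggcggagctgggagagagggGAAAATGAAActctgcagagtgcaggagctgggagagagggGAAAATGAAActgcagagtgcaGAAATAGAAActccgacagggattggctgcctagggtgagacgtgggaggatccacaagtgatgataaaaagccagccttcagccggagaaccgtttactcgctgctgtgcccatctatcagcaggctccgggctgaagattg
IFITM1: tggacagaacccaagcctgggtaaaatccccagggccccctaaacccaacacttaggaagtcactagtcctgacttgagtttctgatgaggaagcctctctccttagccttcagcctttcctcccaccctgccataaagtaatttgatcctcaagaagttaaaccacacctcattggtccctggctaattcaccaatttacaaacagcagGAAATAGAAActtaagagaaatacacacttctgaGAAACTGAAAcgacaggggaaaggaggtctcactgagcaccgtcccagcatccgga

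IFI27 held 2 matches to these letters, IFI6 3 and IFITM1 2, and 453 of the 15381 promoters in the table held at least 1, or 2.95%. A match describes the letters only.

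In expression, IFI27 had -0.40 in E2-BSA cells, against 0.88 in BSA cells and -0.37 in untreated cells. E2-BSA was 2.44-fold below BSA and within 0.04 of untreated, so the carrier array stood apart. IFI27 was -0.50 with E2-BSA and ICI together, 0.31 with E2-BSA and G15, 0.00 with G15 alone, -0.24 with estradiol and 0.10 with ethanol, all below the BSA array.

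IFI6 had -0.23 in E2-BSA cells, against 0.60 in BSA cells and -0.27 in untreated cells, a difference of -0.83. IFITM1 had -0.22 in E2-BSA cells, against 0.47 in BSA cells and -0.21 in untreated cells, a difference of -0.70. Both genes repeated the order of IFI27: E2-BSA and untreated lay together and BSA lay above. IFI27, IFI6 and IFITM1 were each measured by 1 probe set, and that of IFITM1 can match several transcripts. Set against untreated, E2-BSA differed by 0.04 for IFI6 and -0.02 for IFITM1, so the sign for IFI6 turned.

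The interferon list as a whole did not follow these genes. Of its 24 measured members 11 were above and 13 below BSA, 3 were 1.5-fold lower, against 0.662% of all genes, and none was 1.5-fold higher, against 0.339% of all genes. The median difference was -0.01, against a median of 0 over all genes. ISG15, a ubiquitin-like modifier, had 0.06 in E2-BSA cells, against 0.49 in BSA cells and -0.07 in untreated cells. SAMD9, a cytoplasmic antiviral factor, went the other way with 0.52 in E2-BSA cells, against 0.00 in BSA cells and 0.14 in untreated cells, as did IFIT3, which binds foreign RNA, with 0.43 in E2-BSA cells, against 0.01 in BSA cells and 0.18 in untreated cells. Outside the list, CXCL10, a ligand of the receptor CXCR3, had 0.33 in E2-BSA cells, against -0.33 in BSA cells and 0.13 in untreated cells. CXCL11, a ligand of the same receptor, had 0.55 in E2-BSA cells, against -0.09 in BSA cells and 0.22 in untreated cells. Both chemokine genes were highest in ethanol cells, at 3.00 for CXCL10 and 2.04 for CXCL11. Against untreated cells the median of the list was 0.15 for E2-BSA and 0.17 for BSA, so the list stood somewhat above untreated on both arrays.

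MALAT1 and FTX, both nuclear noncoding RNAs, were below the carrier past 1.5-fold. Symbols that begin with LINC, LOC or MIR or end in -AS or -DT, forms given to many noncoding or uncharacterised transcripts, made up 26 of the 131 lower genes (19.8%) and 1 of the 67 higher genes (1.49%), against 12.1% of all genes. The count goes by these letters alone, so it leaves out MALAT1 and FTX below the carrier and EMSLR and FLJ33534 above it. MALAT1, a nuclear RNA of splicing speckles, had -0.13 in E2-BSA cells, against 1.04 in BSA cells and -0.32 in untreated cells. Its mean difference was -1.17, or 2.26-fold lower, over 12 probe sets that ranged from -2.01 to 0.29. MALAT1 was also high in the arrays with G15 (0.65), with E2-BSA and ICI (0.84) and with E2-BSA and G15 (0.73), so that E2-BSA, untreated, estradiol and ethanol were the low arrays. Without probe sets that can match several transcripts its difference was 0.29, and against untreated it was 0.19.

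FTX, a regulatory RNA of the X-inactivation centre, had -0.08 in E2-BSA cells, against 0.59 in BSA cells and -0.48 in untreated cells, so it was below BSA and 0.40 above untreated. The list of 8 nuclear noncoding RNAs had 3 members above and 5 below BSA and a median of -0.14. Of the 8, 2 were 1.5-fold lower, against 0.662% of all genes. RPL27A, a protein of the large ribosomal subunit, shared the pattern of MALAT1 with -0.24 in E2-BSA cells, against 0.62 in BSA cells and -0.19 in untreated cells. Its values were also high with G15 (0.47) and with E2-BSA and ICI (0.66). RPL27A was measured by 1 probe set, of the kind that can match several transcripts. Over a list of 13 cytosolic ribosomal protein genes the median difference was -0.01.

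**Figure D4:**
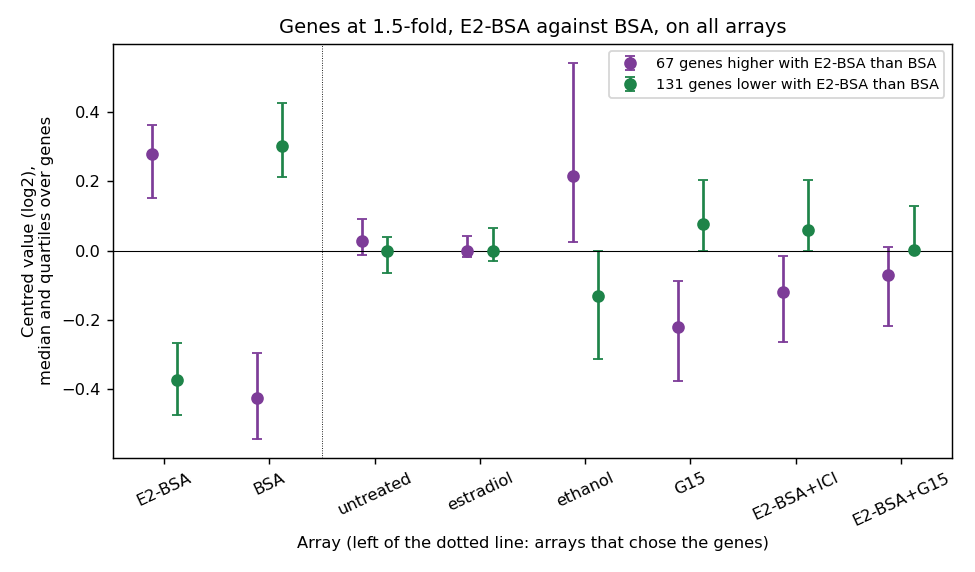
Centred values (log2) of the 67 genes 1.5-fold higher and the 131 genes 1.5-fold lower in E2-BSA than in BSA cells, on each of the 8 arrays, with points for the median over genes and bars for the quartiles. The higher genes had a median of 0.28 with E2-BSA, -0.43 with BSA and 0.03 untreated, and the lower genes -0.37 with E2-BSA, 0.30 with BSA and 0.00 untreated; the E2-BSA and BSA points are apart by choice of the genes.

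The arrays that the choice of these genes did not use place them near the middle. The centring of each probe set across the arrays, with E2-BSA and BSA chosen apart, favours this in advance. For the 67 higher genes the median was -0.12 with E2-BSA and ICI, -0.07 with E2-BSA and G15, -0.22 with G15, 0.00 with estradiol and 0.22 with ethanol. For the 131 lower genes it was 0.06 with E2-BSA and ICI, 0.00 with E2-BSA and G15, 0.08 with G15, 0.00 with estradiol and -0.13 with ethanol. The 2 arrays that also held the conjugate, with ICI or with G15, were thus nearer to untreated than to E2-BSA alone, whose values had chosen the genes. Estradiol was 1.5-fold from BSA in the same direction in 12 of the 67 and 18 of the 131 genes, and untreated cells, with no hormone, in 18 of the 67 and 18 of the 131. Of all 19775 genes, estradiol was this far from BSA in the direction of E2-BSA in 78 and untreated in 108. The counts within the 67 and 131 genes share the BSA array that chose them.

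Only 14 genes were 1.5-fold from both BSA and untreated in the same direction on the E2-BSA array, 2 higher and 12 lower. Each of them had a single probe set. ATP6V1G3, a subunit of the proton pump that acidifies vesicles, had 0.56 in E2-BSA cells, against -0.09 in BSA cells and -0.29 in untreated cells. ATP10D, a flippase that moves lipids across membranes, had 0.38 in E2-BSA cells, against -0.22 in BSA cells and -0.27 in untreated cells. BSA was 0.20 above untreated for ATP6V1G3 and 0.05 above untreated for ATP10D, so the carrier and untreated arrays lay close together in both genes.

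Among the 12 lower genes were several that are best known from other tissues. FATE1, a testis protein, had -0.62 in E2-BSA cells, against 0.27 in BSA cells and 0.09 in untreated cells. CD2, an adhesion molecule of T cells, had -0.58 in E2-BSA cells, against 0.16 in BSA cells and 0.27 in untreated cells. CD1C, which presents lipid antigens on dendritic cells, had -0.63 in E2-BSA cells, against 0.08 in BSA cells and 0.02 in untreated cells. The level of these transcripts was removed by the centring, so whether SKBR3 cells expressed them at all is not shown.

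NLRP13, of the NOD-like receptor family, differed by -0.70 from BSA and -0.76 from untreated, and HVCN1, a voltage-gated proton channel, by -0.67 and -0.62. EXOC3L2 and ABHD16B differed from BSA by -0.75 and -0.76, and from untreated by -0.68 and -0.73. All 12 lower genes were lower on the E2-BSA array than on every other array, the 2 arrays of the conjugate with ICI or G15 included. Their choice by a low E2-BSA value favours this, and HVCN1 was -0.58 there against -0.57 with ethanol. ATP6V1G3 was higher than on every other array, and ATP10D was not.

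Over the wider set of 29 genes that departed on the E2-BSA array, 28 had a single probe set, as did 77.8% of the 198 genes past 1.5-fold, 89.3% of the 131 lower ones and 46.8% of all genes. With E2-BSA and ICI together, 1 of the 6 higher and 0 of the 23 lower genes were 1.5-fold from BSA in the same direction. With E2-BSA and G15 together, 0 of the 6 and 0 of the 23 were. Over all 198 genes the counts were 9 with E2-BSA and ICI and 15 with E2-BSA and G15. Of all 19775 genes, 107 and 58 were this far from BSA in the direction of E2-BSA. The 198 genes had been chosen by their values on the E2-BSA and BSA arrays, and these counts share the BSA array. C3orf33 had 0.55 in E2-BSA cells, against -0.14 in BSA cells and -0.03 in untreated cells, and -1.37 with E2-BSA and ICI. GPR63, an orphan G protein-coupled receptor, had 0.52 in E2-BSA cells, against -0.09 in BSA cells and 0.00 in untreated cells. GPAT3, which starts glycerolipid synthesis, had 0.35 in E2-BSA cells, against -0.27 in BSA cells and -0.16 in untreated cells. These genes stood above both the carrier and untreated arrays, by 0.51 to 0.58 over untreated.

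The receptors differed little. GPER1 had -0.08 in E2-BSA cells, against -0.06 in BSA cells and 0.06 in untreated cells, but its 2 probe sets pointed apart, at -0.38 and 0.32. ESR1, which encodes the nuclear estrogen receptor alpha, differed by -0.10 over 9 probe sets and ESR2, the beta receptor, by -0.04 over 6. Against untreated, E2-BSA differed by -0.17 for ESR1 and -0.01 for ESR2. ERBB2, which encodes HER2, had 0.06 in E2-BSA cells, against 0.15 in BSA cells and 0.00 in untreated cells.

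Genes linked to GPER1 signalling were split around the carrier. Of 15 measured, 8 were above and 7 below BSA, none reached 1.5-fold, and the median was 0.01. CCN2, a matricellular protein, came nearest with 0.41 in E2-BSA cells, against -0.17 in BSA cells and 0.08 in untreated cells. It was -0.10 with E2-BSA and ICI, -0.60 with E2-BSA and G15, 0.19 with estradiol and 1.68 with ethanol, so ethanol cells were far above E2-BSA cells.

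The transcription factor FOS had -0.13 in E2-BSA cells, against -0.10 in BSA cells and -0.32 in untreated cells. EGR1, a zinc finger factor induced within minutes of growth factor signals, had -0.23 in E2-BSA cells, against -0.35 in BSA cells and -0.46 in untreated cells. Both genes were thus close on the E2-BSA and BSA arrays, and both arrays were above untreated.

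Among 27 immediate early genes 12 were above and 14 below BSA, with a median of -0.01, and the medians against untreated were 0.09 for E2-BSA and 0.08 for BSA. Their lowest member was FOSL1, a partner of JUN in AP-1, at -0.39 in E2-BSA cells, against 0.01 in BSA cells and -0.40 in untreated cells. Of 16 genes of MAP kinase feedback, 12 were above and 4 below BSA, with a median of 0.06. Of 15 cyclic AMP response genes, 7 were above and 8 below, with a median of -0.01. No member of these lists reached 1.5-fold.

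Targets of nuclear estrogen receptors were spread around 0, with 11 of 21 above and 9 below BSA and a median of 0.02. TFF3, a secreted trefoil peptide, was lowest with 0.00 in E2-BSA cells, against 0.55 in BSA cells and -0.04 in untreated cells. NRIP1, a corepressor of nuclear receptors, was highest with 0.26 in E2-BSA cells, against -0.26 in BSA cells and 0.14 in untreated cells. For both genes, E2-BSA and untreated were close and BSA was apart, in opposite directions.

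Several lists of stress, replication and lipid genes lay slightly above the carrier, and BSA was below untreated in each of these. Of 34 lists, 23 had a median difference above 0 and 11 below, between -0.14 and 0.13. A median of at least 0.1 was found in 8 lists, and in all 8 BSA lay below untreated, while in 0 of them was E2-BSA at least 0.1 above untreated. The list of splicing factors fell just short of this limit, at 0.0973 above BSA and 0.0976 above untreated, so the counts depend on the limit. Choosing lists by their difference from BSA favours those that are low on BSA. Over all lists, 479 genes were measured, of which 3 were 1.5-fold higher (0.626%, against 0.339% of all genes) and 5 lower (1.04%, against 0.662%).

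The heat shock list had 11 of 14 genes above BSA and a median of 0.13. Its highest member was DNAJB4, a chaperone of the HSP40 family, at 0.50 above BSA and 0.09 above untreated. Genes of the G1/S transition and DNA replication gave 20 of 23 above BSA and a median of 0.12, against a median of 0.01 over untreated. ORC1, of the origin recognition complex, had 0.20 in E2-BSA cells, against -0.26 in BSA cells and 0.16 in untreated cells. The unfolded protein and ATF4 list gave 24 of 30 above BSA and a median of 0.11, with its highest member SLC7A11, the cystine transporter, at 0.16 in E2-BSA cells, against -0.30 in BSA cells and 0.00 in untreated cells.

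In cholesterol synthesis 9 of 13 genes were above BSA, with a median of 0.11. Targets of the aryl hydrocarbon receptor gave 8 of 11 above BSA and a median of 0.12, with the receptor gene AHR itself highest, at 0.05 in E2-BSA cells, against -0.32 in BSA cells and 0.00 in untreated cells. Of 12 genes that handle albumin or its uptake, 5 were above and 7 below BSA, with a median of -0.10. CUBN, a receptor that takes up albumin in the kidney, was the lowest at -0.29, and CAV2, a caveolar coat protein, the highest at 0.33. Against untreated, E2-BSA differed by -0.38 for CUBN and 0.11 for CAV2.

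Splicing factors and nuclear RNA-binding proteins had a higher median against untreated cells than these lists. Of 18 measured, 15 were above BSA with a median of 0.0973, and 17 were above untreated with a median of 0.0976. RBM25, which regulates splice site choice, was highest at 0.42 above BSA, but 2 of its 7 probe sets, at 1.13 and 1.06, gave most of this and another was at -0.11. RBM25 had 0.11 in E2-BSA cells, against -0.31 in BSA cells and -0.01 in untreated cells. TRA2A, a splicing activator, was lowest at -0.19 from BSA, with -0.01 in E2-BSA cells, against 0.18 in BSA cells and -0.24 in untreated cells. E2-BSA was thus 0.23 above untreated for TRA2A. None of these genes reached 1.5-fold.

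PMAIP1, a BH3-only protein that promotes cell death and is induced by p53, was the one member of the p53 list past 1.5-fold, with 0.33 in E2-BSA cells, against -0.29 in BSA cells and -0.08 in untreated cells. Of that list, 7 of 13 genes were above BSA, with a median of 0.02, and 1 was 1.5-fold higher, against 0.339% of all genes. TNFAIP3, an inhibitor of NF-kB, had 0.29 in E2-BSA cells, against -0.15 in BSA cells and -0.09 in untreated cells, the highest in an inflammatory list of 19 genes with a median of 0.01. In ethanol cells PMAIP1 stood at 3.06 and TNFAIP3 at 5.08, far above E2-BSA cells.

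**Figure D5:**
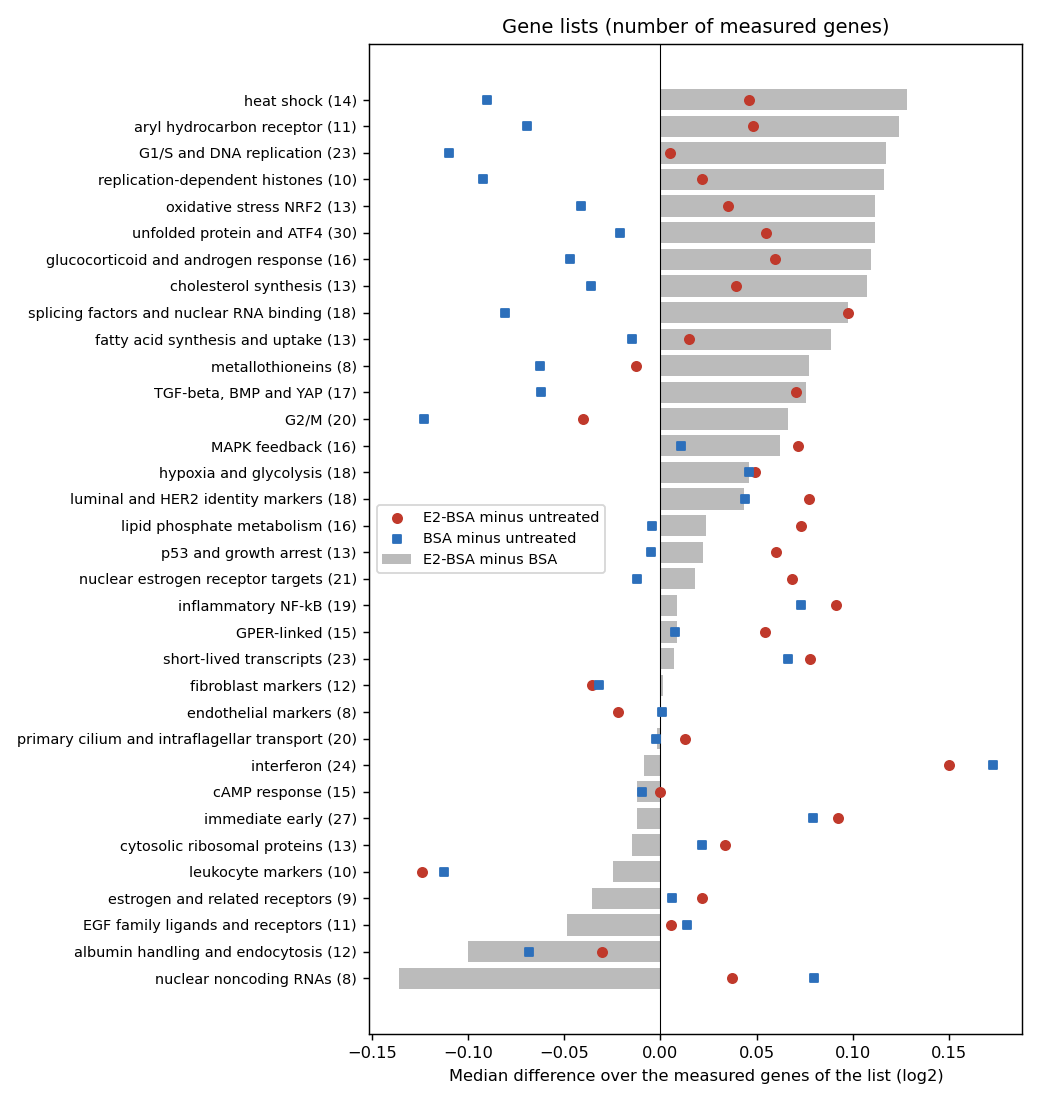
Median difference (log2) over the measured genes of each of 34 lists, with bars for E2-BSA minus BSA, circles for E2-BSA minus untreated and squares for BSA minus untreated; the number of measured genes is in brackets and there are no error bars. In all 8 lists with a bar of at least 0.1, a choice that favours a low BSA value, the square lies left of 0. The interferon list has both symbols right of 0.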

How the data were processed

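Total RNA was isolated on columns, labelled with biotin and hybridized to the arrays as the maker prescribes, per the labels' protocols. The deposited log2 values ran from -2.27 to 7.85 with a median of 0 on every array, and in every probe set at most 4 of 8 arrays lay on either side of 0. For their log base, summarization and normalization the sources used here name nothing. Level was thus removed, and neither a filter on low values nor a check against background was possible. Of 54675 probe sets, 62 controls, 1801 with several genes and 11721 with none were left out; 41037 of the 41091 others matched a current RefSeq gene. Genes are means of their probe sets, with 9252 of 19775 measured by 1. Python 3.11.15, pandas 2.3.3 and numpy 2.4.6 were used, and the counting was tested on simulated data. With 1 array a condition there were no tests, and the number of arrays limits the precision. The text draws on the 12 genes farthest either way and up to 10 each way departing on either array or with agreeing probe sets. It also draws on the highest, lowest and 1.5-fold members of each list, and on the receptors. Not every gene of these groups is named. A few genes were chosen after their values were seen: further list members, CXCL10, CXCL11, EMSLR, FLJ33534, and genes 1.5-fold from both BSA and untreated. Members and lists were chosen with earlier results of these data known. The letters of promoters were searched on both strands; shares over the gene sets are not given because fewer than 80% of these genes had a promoter in the table. Alternatives in scaling, probe sets and comparator were run.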

Additional observations from a re-analysis of the deposited data

How the results depend on the processing

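No paired analysis was possible because each condition had 1 array; for the same reason no array could be left out. Centring each array on its median changed no count, and the median over probe sets gave 62 higher and 131 lower genes. Quantile normalization gave 104 higher and 129 lower genes at 1.5-fold, of which 52 and 118 were among those reported, and 8 higher and 5 lower at 2-fold. Without probe sets that can match several transcripts there were 68 higher and 127 lower genes, with 1 and 1 at 2-fold. With the 10523 genes of several probe sets there were 30 and 14, with 1 and 1 at 2-fold, so more genes were higher than lower. Genes with 1 probe set, which this leaves out, were 37 of the 67 higher and 117 of the 131 lower genes. Against untreated there were 22 and 47, of which 2 and 12 were among those reported, and 0 and 0 at 2-fold. Against the mean of BSA and untreated there were 14 and 42, and 0 and 0. A limit of 60% in place of 75% of the way put 63 genes on the E2-BSA array and 82 on the BSA array. Against untreated the sign turned for EPRS1 (-0.029), FTX (0.405), IFI6 (0.044), MALAT1 (0.19) and MS4A5 (0.092). Without the probe sets that can match several transcripts it turned for MALAT1 (0.29). Of 34 list medians, 16 moved by more than the spread of 0.0647 against untreated, and 0 did so under quantile normalization. The causes of these moves were not tested. A value near 0 can be a transcript that the cells do not express.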

Other observations

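Among the probe sets left out of the gene means, those without a gene symbol were past 1.5-fold more often below than above the carrier. Of 11721 such probe sets, 83 were 1.5-fold higher in E2-BSA than in BSA cells (0.708%) and 278 were lower (2.37%). The 41091 probe sets with 1 gene symbol went the other way, with 653 higher (1.59%) and 445 lower (1.08%). Of the 1801 probe sets assigned to several genes, 26 were higher (1.44%) and 23 were lower (1.28%). One of these, shared by the nuclear paraspeckle RNA NEAT1 and MIR612, had -0.25 in E2-BSA cells, against 0.94 in BSA cells and -0.89 in untreated cells, so that BSA was far above the others and E2-BSA lay above untreated. Another, shared by the endoplasmic reticulum chaperone HSP90B1 and MIR3652, had 0.00 in E2-BSA cells, against -1.02 in BSA cells and 0.10 in untreated cells.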
